A study of Mus musculus with 40 samples.

Results

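The 6 genes Aen, Rps27l, Fas, Cycs, Bik and Dad1 take part in cell death or are genes through which the tumour suppressor p53 promotes it, and they were followed in cultured mouse embryos exposed to an alkylating drug. They are the genes measured by probes that the array annotation assigned to exactly 1 of these symbols. This gave 10 probes of 15279, and 6 genes of the 6970 with a probe of their own. All 6 genes had at least 1 probe with a value in every replicate. Array design 1 carried 6 of the probes, for Aen, Rps27l, Fas (2 probes) and Cycs (2 probes), and array design 2 carried 4, for Aen, Fas, Bik and Dad1. The genes were chosen by their treated over control ratios on these same arrays, so those ratios are given as a description and carry no test.

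The treated embryos were kept at 37 °C for 5 h in the continuous presence of 40 µM 4-hydroperoxycyclophosphamide (4CP), a form of cyclophosphamide that needs no activation by the liver, and the control embryos were cultured untreated at 37 °C. Each of the 40 2-colour arrays compared total RNA of treated embryos directly with that of control embryos, one per channel. Each of the 2 array designs was hybridised in 5 replicates, each with a slide for either dye orientation, and every slide was read 2 times, called plain and B after the labels. The arrays counted here are these readouts. The 2 arrays of a slide share its number and are not separate hybridisations. The sources used here do not give strain, stage, number of embryos per RNA sample or the meaning of the B mark.

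Cyclophosphamide is converted to a mustard that alkylates and cross-links DNA. Damaged DNA stabilises p53, which raises transcription of genes for cell cycle arrest, repair and death. Death then proceeds by either of 2 routes. In the receptor route, Fas at the cell surface binds its ligand and recruits an adaptor that activates initiator caspases. In the mitochondrial route, BH3-only proteins such as Bik oppose the protective members of the BCL-2 family, the outer membrane opens, and cytochrome c, encoded by Cycs, leaves the mitochondrion and assembles the apoptosome with Apaf1 and caspase 9. The exonuclease encoded by Aen degrades DNA in dying cells, and Aen, Rps27l and Fas are known targets of p53. Dad1, named for defence against cell death, is a subunit of the oligosaccharyltransferase, which attaches sugar chains to proteins in the endoplasmic reticulum.

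The measurements are log2 ratios of treated over control, after each array was centred on its median and both dye orientations were averaged into 1 value per replicate. Base 2 is inferred. The direction is the likely one, taken from the order of the channels in the labels and from p53 targets, to which Aen, Rps27l and Fas themselves belong. Were the numerator the other channel, rises would be falls and falls rises. The ratios carry no level or depth, so no gene can be ranked by its amount of RNA and tissue markers cannot be checked as levels. The precision has to be read from the 5 replicates and their spread, since counts of single arrays include 2 readouts per slide. The replicates are separate by their labels alone, so p-values rest on a spread between samples that may be technical. In whole embryos, fewer cells of a type and less RNA per cell cannot be told apart. One readout, of replicate 4 on design 1 with treated RNA in channel 2, lacked 786 of 7680 values, among them 5 of the 6 probes described here. Arrays of one orientation correlated as low as −0.31 on design 1 and −0.54 on design 2, while the combined replicate values correlated at 0.257 to 0.679 and 0.353 to 0.686. A smooth trend with the probes' dye profile held 35.7% to 82% of the variance of a replicate on design 1 and 33.3% to 63.4% on design 2. Values with this dye-profile trend removed are given beside those of the 6 genes and of the genes whose calls they change.

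The promoters of 3 of the known p53 targets are shown because p53 acts by binding DNA. The windows are from RefSeq on GRCm38.p6 and run from 250 bases before to 50 bases after a transcript start. All 3 windows lie on the plus strand, and capitals mark a match to the p53 half-site, the 10-base consensus for a pair of p53 subunits. The consensus reads the same on both strands.
Aen, chr7:78895808-78896107: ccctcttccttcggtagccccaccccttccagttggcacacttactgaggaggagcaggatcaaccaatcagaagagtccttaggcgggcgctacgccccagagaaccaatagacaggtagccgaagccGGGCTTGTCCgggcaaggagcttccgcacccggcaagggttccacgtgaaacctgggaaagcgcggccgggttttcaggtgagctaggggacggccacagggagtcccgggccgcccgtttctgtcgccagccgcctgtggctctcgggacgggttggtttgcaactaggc
Rps27l, chr9:66946163-66946462: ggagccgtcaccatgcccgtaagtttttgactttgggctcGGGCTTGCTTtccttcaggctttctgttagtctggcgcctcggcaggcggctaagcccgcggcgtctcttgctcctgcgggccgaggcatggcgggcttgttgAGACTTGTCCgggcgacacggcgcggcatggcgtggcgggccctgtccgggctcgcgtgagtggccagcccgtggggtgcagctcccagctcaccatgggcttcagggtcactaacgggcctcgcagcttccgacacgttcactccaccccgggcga
Fas, chr19:34290409-34290708: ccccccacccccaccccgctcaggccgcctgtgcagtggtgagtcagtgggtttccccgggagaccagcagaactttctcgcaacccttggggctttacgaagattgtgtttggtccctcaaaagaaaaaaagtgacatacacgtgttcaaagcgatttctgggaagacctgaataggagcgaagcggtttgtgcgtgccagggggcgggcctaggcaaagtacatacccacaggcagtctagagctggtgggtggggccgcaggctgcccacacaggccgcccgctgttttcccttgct
The Aen window held 1 match, GGGCTTGTCC, 121 bases before the start, and the same match lay 10 bases after an upstream start of the gene. In the Rps27l window 2 matches, GGGCTTGCTT and AGACTTGTCC, lay 210 and 107 bases before the start, and they did not overlap. A window at an upstream start of Rps27l, which ends before both matches, and those of Fas, Cycs and Dad1, held no match. Over all 32851 windows of the same length, 8.36% held at least 1 match, and 9.55% of 27025 genes had one in any window. In 24 of all windows 2 matches lay at most 13 bases apart, and no window of the genes described here was among them. A match describes the letters only, and no binding was measured here.

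Aen, the DNA-degrading nuclease, was higher in treated embryos on every array of both designs that gave a value. Its probe on design 1 (probe 4853) read 0.94, 0.64, 0.79, 0.64 and 0.72 in replicates 1 to 5, a mean of 0.75 ± 0.12 (SD, n = 5) or 1.68-fold. The values lay close together, and replicate 1 was the highest. Across the 19 single arrays with a value, the lowest ratio was 0.15, the median 0.77 and the highest 1.31. With treated RNA in channel 1 the mean was 0.82 ± 0.15, and with treated RNA in channel 2 it was 0.68 ± 0.27 (SD, n = 5 each), so both dye orientations showed the same direction in every replicate. Of the 7680 probes of the design, it had rank 17 from the top.

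The probe for Aen on design 2 (probe 5291) read 0.46, 0.28, 0.27, 0.26 and 0.33, a mean of 0.32 ± 0.08 (SD, n = 5) or 1.25-fold. It was above 0 on 20 of 20 arrays, with single ratios from 0.081 through a median of 0.26 to 0.83. No replicate of design 2 reached the lowest replicate of design 1, but the 2 designs hold different probes on separately made tables, and the difference between them was not tested. Plain readouts gave a mean of 0.42 and B readouts 0.22. Without centring, the value of probe 5291 turned to −0.11, whereas that of probe 4853 was 0.43. With the dye-profile trend removed, the means were 0.69 ± 0.14 for probe 4853 and 0.35 ± 0.08 for probe 5291, both above 0 in all 5 replicates, and their ranks from the top were 6 of 7680 and 42 of 7599.

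Rps27l encodes a ribosomal-like protein that differs by few residues from the ribosomal protein encoded by Rps27. Its single probe (5649, design 1) read 0.51, 0.61, 0.75, 0.94 and 1.12 in replicates 1 to 5, a mean of 0.79 ± 0.25 (SD, n = 5) or 1.73-fold, rank 12 of 7680. All 5 replicates were above 0, with replicate 5 the highest and replicate 1 the lowest. On single arrays, 16 of 19 ratios were above 0, from −0.19 through a median of 0.77 to 1.68. The 2 dye orientations gave unlike means. Arrays with treated RNA in channel 1 averaged 0.46 ± 0.58 and were above 0 in 3 of 5 replicates, and those with treated RNA in channel 2 averaged 1.12 ± 0.44 and were above 0 in 5 of 5. After removal of the dye-profile trend the mean was 0.54 ± 0.16 (SD, n = 5), above 0 in every replicate and again rank 12.

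**Figure D1:**
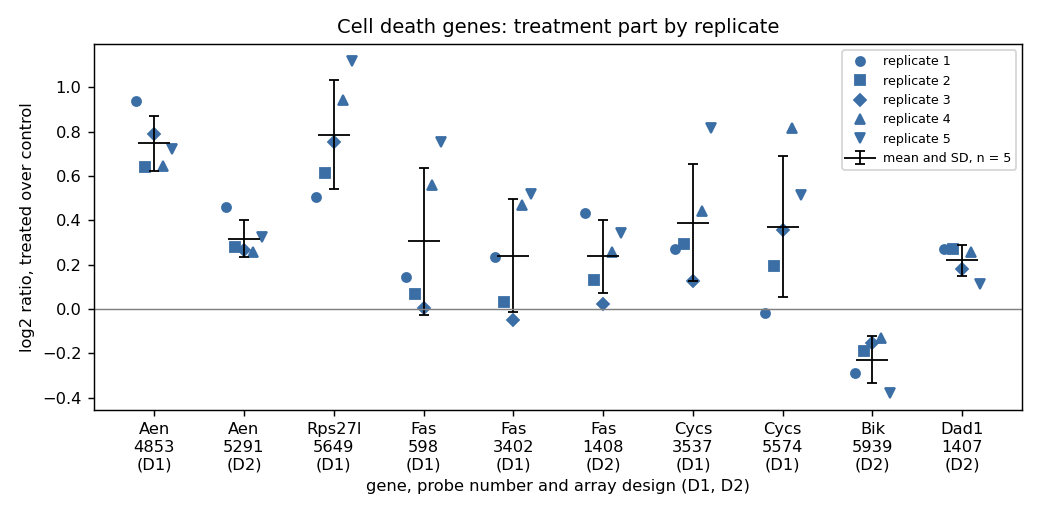
Log2 ratio of treated over control (y axis) for each of the 10 probes (x axis, with probe number and array design D1 or D2). Points are the 5 replicates, and bars give the mean and SD. Aen and Rps27l on design 1 lie highest, with means of 0.75 and 0.79, and Bik lies below 0 in all 5 replicates.

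Rps27 itself was measured on design 2 and was 0.38 ± 0.08 (SD, n = 5, limma adjusted p = 1.86e-05), higher in 5 of 5 replicates. With the dye-profile trend removed it was 0.01 (limma adjusted p = 0.898), and without centring it was −0.053. Hybridisation of one of these 2 transcripts to the probe of the other was not tested.

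Fas, the death receptor, had 3 probes, with positive means and SDs of 0.16 to 0.33 between replicates. Probe 598 on design 1 read 0.14, 0.067, 0.0040, 0.56 and 0.76 in replicates 1 to 5, a mean of 0.31 ± 0.33 (SD, n = 5) or 1.24-fold, and 0.19 without replicate 5. Probe 3402 on the same design read 0.24, 0.030, −0.049, 0.47 and 0.52, a mean of 0.24 ± 0.25 or 1.18-fold. On both probes replicates 4 and 5 were high and replicate 3 was nearest to 0 or below it. Probe 1408 on design 2 read 0.44, 0.13, 0.023, 0.26 and 0.34, a mean of 0.24 ± 0.16 or 1.18-fold, with replicate 3 of that design the lowest. The labels do not say whether replicates of equal number on the 2 designs share RNA.

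The single arrays for Fas spread widely around 0. The ratio was above 0 on 11 of 19 arrays for probe 598 (−1.12 to 1.25, median 0.46), 13 of 19 for probe 3402 (−0.77 to 1.09, median 0.13) and 13 of 20 for probe 1408 (−0.68 to 1.49, median 0.15). For probes 598 and 3402 the mean with treated RNA in channel 1 was 0.015 ± 0.78 and 0.019 ± 0.59, and with treated RNA in channel 2 it was 0.60 ± 0.59 and 0.46 ± 0.44. Probe 1408 averaged −0.087 ± 0.57 with treated RNA in channel 1 and 0.56 ± 0.65 with treated RNA in channel 2. All 3 probes thus lay near or below 0 in one orientation and above 0 in the other. With the dye-profile trend removed the 3 means were 0.022 ± 0.13, 0.00063 ± 0.054 and −0.069 ± 0.14 (SD, n = 5 each), above 0 in 3, 3 and 2 of 5 replicates, and without centring they were −0.0069, −0.072 and −0.19.

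**Figure D2:**
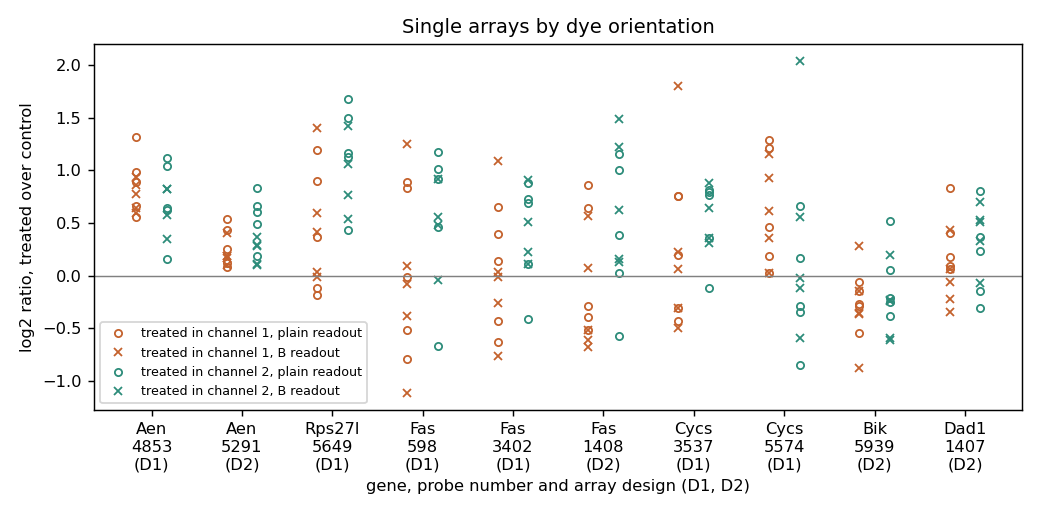
Log2 ratio of treated over control on every single array (y axis) for each probe (x axis). Arrays with treated RNA in channel 1 are on the left and those with treated RNA in channel 2 on the right of each pair, circles are plain and crosses B readouts. Every array lies above 0 for both Aen probes, while Fas, Cycs, Rps27l, Dad1 and Bik have arrays on both sides of 0.

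Cycs, for cytochrome c, had 2 probes on design 1 with like means and unlike replicates. Probe 3537 read 0.27, 0.29, 0.13, 0.44 and 0.82 in replicates 1 to 5, a mean of 0.39 ± 0.26 (SD, n = 5) or 1.31-fold. Probe 5574 read −0.020, 0.19, 0.36, 0.82 and 0.51, a mean of 0.37 ± 0.32 or 1.29-fold. The highest replicate was 5 on the first and 4 on the second. On the second, replicate 4 with treated RNA in channel 2 read 0.17 in the plain and 2.04 in the B readout. Each probe was above 0 on 14 arrays, of 19 and of 20, with single ratios from −0.50 to 1.80 and from −0.85 to 2.04.

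The 2 Cycs probes also leaned to opposite dyes. Probe 3537 averaged 0.22 ± 0.70 with treated RNA in channel 1 and 0.56 ± 0.32 with treated RNA in channel 2, whereas probe 5574 averaged 0.62 ± 0.50 and 0.12 ± 0.73 in the same order (SD, n = 5 each). Without the dye-profile trend the means were 0.14 ± 0.13 and 0.092 ± 0.15, each above 0 in 4 of 5 replicates. The value of 2.04 for probe 5574 came from the readout of replicate 4 that lacked many values. It enters the replicate 4 value, the mean and the channel 2 mean of that probe, so its place as highest replicate depends on this readout. The mouse genome carries processed copies of the cytochrome c gene, and whether they add to either probe was not tested.

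Dad1, the glycosylation subunit, read 0.27, 0.27, 0.18, 0.26 and 0.11 in replicates 1 to 5 on its single probe (1407, design 2). The mean was 0.22 ± 0.07 (SD, n = 5) or 1.16-fold, and the replicates were close to each other. On single arrays it was above 0 on 14 of 20, from −0.34 through a median of 0.20 to 0.83. With treated RNA in channel 1 the mean was 0.14 ± 0.27 (above 0 in 2 of 5 replicates), and with treated RNA in channel 2 it was 0.29 ± 0.34 (4 of 5). Removal of the dye-profile trend left 0.10 ± 0.05, above 0 in 5 of 5 replicates, and without centring the value was −0.21.

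Bik, a BH3-only protein that promotes death, was the only one of the 6 genes with a mean below 0. Its probe (5939, design 2) read −0.29, −0.19, −0.15, −0.13 and −0.38 in replicates 1 to 5, a mean of −0.23 ± 0.10 (SD, n = 5), or 1.17-fold lower in treated embryos. All 5 replicates were below 0. On single arrays 16 of 20 were below 0, with a range of −0.87 to 0.51 and a median of −0.25, and both orientations had negative means, −0.28 ± 0.29 with treated RNA in channel 1 and −0.18 ± 0.20 with treated RNA in channel 2. Counted from the bottom, it had rank 35 of 7599 probes. With the dye-profile trend removed the mean was −0.18 ± 0.13, below 0 in all 5 replicates, and the rank from the bottom was 126. Without centring it was −0.66.

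**Figure D3:**
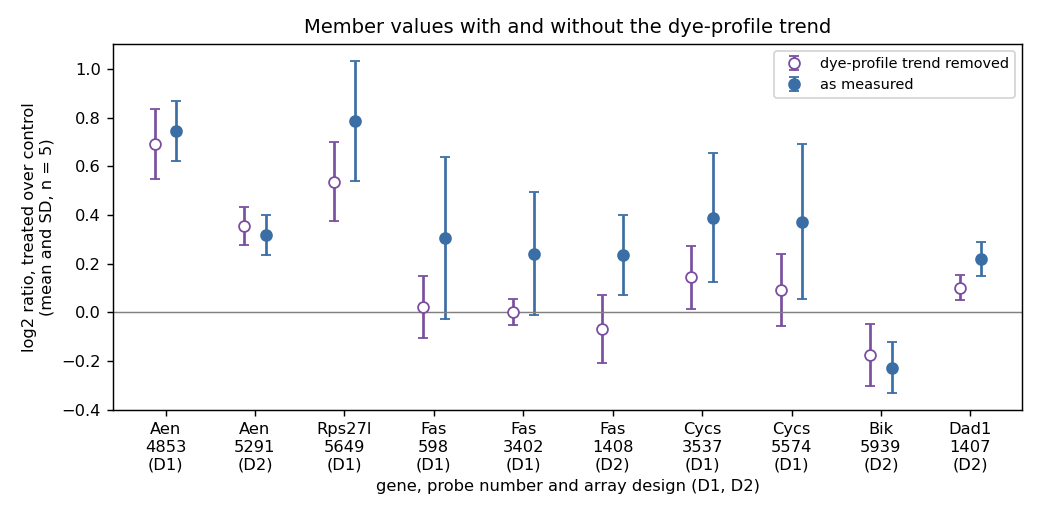
Mean and SD over 5 replicates of the log2 ratio of treated over control (y axis) for each probe (x axis), with the dye-profile trend removed (open circles, left) and as measured (filled circles, right). The 3 Fas probes move to between −0.069 and 0.022, while Aen stays at 0.69 and 0.35 and Rps27l at 0.54.

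The dye effect did not choose the genes and could be tested. It is the mean of both orientations without turning, channel 1 over channel 2. None of the 6 probes on design 1 and none of the 4 on design 2 passed a limma adjusted p of 0.05, against 16.2% of all probes called on design 1 and 0% on design 2, where 1431 of 7599 had an unadjusted p below 0.05. The largest average was for Rps27l, −0.33 ± 0.45 (SD, n = 5, limma adjusted p = 0.16). Fas followed with −0.32 ± 0.59 for probe 1408 (limma adjusted p = 0.432) and −0.29 ± 0.61 for probe 598 (limma adjusted p = 0.299), and Aen had 0.071 ± 0.18 (limma adjusted p = 0.605) and −0.073 ± 0.13 (limma adjusted p = 0.752). These averages hid replicates of opposite sign. On design 1 the dye part was above 0 in replicates 2 and 5 and below 0 in replicate 3 for all 6 probes. On design 2 it was above 0 in replicate 2 and below 0 in replicates 1, 3 and 4 for all 4. The share of all probes with these signs is not given here, so the pattern cannot be called particular to these genes. For Fas probe 598 the dye part ran from −0.96 to 0.42, for Fas probe 1408 from −0.89 to 0.34, and for Aen probe 4853 from −0.14 to 0.28.

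Slide numbers in the titles fell into a 3000 and a 2000 series, each holding whole replicates with both orientations. Every one of the 10 probes kept the sign of its mean within each series. Rps27l averaged 0.94 in the 3000 series (n = 3) and 0.56 in the 2000 series (n = 2), a difference of 0.38 ± 0.14 (SE, limma adjusted p = 0.999), and Cycs probe 5574 averaged 0.56 and 0.086, a difference of 0.48 ± 0.16 (SE, limma adjusted p = 0.999). The 3000 series of Cycs probe 5574 includes the value of 2.04 from the incomplete readout of replicate 4. For Rps27l and Cycs probe 5574 the replicates of the 2 series did not overlap. With so few replicates this can readily occur without a difference, and its share over all probes was not counted. No difference passed on either design (0% called), with 142 of 7680 and 719 of 7599 unadjusted p-values below 0.05. Aen differed little between the series, with 0.72 in the 3000 series and 0.79 in the 2000 series on design 1, and 0.29 and 0.33 on design 2 (limma adjusted p = 0.999 and 0.937).

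The probes most like each member were those with the smallest root mean square difference over the 5 replicate values, among 4748 probes with 1 symbol on design 1 and 4854 on design 2. Aen probe 4853 and Rps27l had the same 3, namely probes for Dnajc9 and Rrm2 (2 probes). For Rps27l the differences were 0.17 for Dnajc9 and 0.15 and 0.17 for Rrm2, and for Aen 0.25, 0.26 and 0.28, larger than the SD of Aen between its replicates. Other members had closer matches. Fas probe 598 lay nearest to 2 probes for Eef1a1 (0.051 and 0.079) and to Atp1b1 (0.080), Fas probe 3402 to Sfpq, Eif3l and Brms1 (0.039 to 0.060), and Fas probe 1408 to Rbbp7, Nucks1 and Mcm7 (0.027 to 0.043). Cycs probe 3537 lay nearest to Pclaf, Pgam1 and Marcksl1 (0.053 to 0.057) and probe 5574 to Zfr, Zc3h11a and 2310011J03Rik (0.10 to 0.11). On design 2, Aen lay nearest to Rpl6, Psmc1 and Nfyb (0.027 to 0.031), Dad1 to Gm14634, Psmd11 and Ccnd2 (0.026 to 0.033), and Bik to Tmem170, Runx1t1 and Dlg3 (0.053 to 0.063).

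Other genes of the same pathways were read from lists that leave the 6 genes out. Besides death genes, the lists hold respiratory partners of cytochrome c, the oligosaccharyltransferase and relatives of the 6 genes. On design 1 none of 52 probes for 42 such genes passed a limma adjusted p of 0.05. Of all 7680 probes, 0.638% were called higher and 0.013% lower. An unadjusted limma p below 0.05 was found for 18 of the 52, and for 2534 of all 7680 probes. On design 2 it was found for 3128 of all 7599 probes. Counts of unadjusted p-values for the single lists below are to be read beside these. An ordinary one-sample test also called none, and limma on single arrays with a replicate block called 8 higher. Calls also appeared without the incomplete readout (12 higher) and on plain readouts alone (5 higher), so the absence of calls on design 1 depended on which readouts entered. With the dye-profile trend removed none of the 52 was called, against 0.56% and 0.221% of all probes. Their median was 0.10, against 0.0049 over all probes. On design 2, 25 of 54 probes for 47 genes were called higher (46.3%) and 2 lower (3.7%), where 19.8% of all 7599 probes were called higher and 8.07% lower, and their median was 0.14 against 0.017. Of the 25, 12 came from the respiratory partners of cytochrome c, 2 from the oligosaccharyltransferase and 1 from relatives of the 6 genes. With the dye-profile trend removed, 5 of these 54 were higher and 1 lower, against 3.18% and 1.83% of all probes. An ordinary one-sample test called 13 higher and 1 lower, and without centring none was higher and 35 were lower. Beyond the main setting and trend removal, shares of all probes called are not given here. On either design, the counts under other settings therefore have no background beside them.

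Among p53 targets with a role in death, Pidd1, which encodes a death-domain protein that activates caspase 2, was higher on design 2 (0.25 ± 0.14, SD, n = 5, limma adjusted p = 0.00282), 1 of 2 probes. It was 0.091 with the trend removed (limma adjusted p = 0.3). Perp, a p53 target at the cell membrane and the only one of the list on design 1 beside the genes above, was 0.11 ± 0.31 (limma adjusted p = 0.5). Bax, Bbc3, Pmaip1, Casp8, Apaf1, Bcl2 and Bcl2l1 had no probe among those of the lists on either design, so they were not analysed here.

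In the BCL-2 and BAG families, 5 of 10 probes rose and 2 fell on design 2, and none of 11 passed on design 1 (3 with an unadjusted p below 0.05). Over all probes of design 2, 19.8% were called higher and 8.07% lower, and with the trend removed 1 of the 10 was higher and none lower. Bnip3l, a mitochondrial BH3-only protein known for clearance of mitochondria, was 0.27 ± 0.12 and 0.16 ± 0.14 on its 2 probes (limma adjusted p = 0.00121 and 0.0415), and 0.0033 on design 1 (limma adjusted p = 0.983). The second of these calls was lost without replicate 1, 2, 3 or 4 (limma adjusted p of 0.0659 to 0.161), and with the trend removed neither was called (limma adjusted p = 0.117 and 0.424). Tmbim4, a protective membrane protein of the Bax inhibitor family, was 0.25 ± 0.13 (limma adjusted p = 0.00229) and remained called with the trend removed (0.26, limma adjusted p = 0.0107). Bnip1, a BH3-only protein of the endoplasmic reticulum, was −0.17 ± 0.06 (limma adjusted p = 0.0229), a call lost when replicate 2, 4 or 5 was left out (limma adjusted p = 0.0543, 0.07 and 0.0516) and with the trend removed (−0.049, limma adjusted p = 0.542). Bag2, a co-chaperone, was 0.27 ± 0.12 on design 1 (limma adjusted p = 0.0516), and 0.11 with the trend removed. Mcl1, a protective member, was 0.23 ± 0.14 on design 1 (limma adjusted p = 0.0549) and 0.049 ± 0.18 on design 2 (limma adjusted p = 0.581).

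The list of death receptor genes and their relatives, to which Fas belongs, held no call. None of 6 probes on design 1 and none of 5 on design 2 was called by limma, with 2 and 1 at an unadjusted p below 0.05, and with so few probes this count tells little about the group. Traf1, an adaptor of tumour necrosis factor receptors, was −0.23 ± 0.09 on design 1 (limma adjusted p = 0.0516), lower in 5 of 5 replicates but −0.026 with the trend removed, and Fastk, a Fas-activated kinase, was 0.14 ± 0.11 on design 2 (limma adjusted p = 0.0649).

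Caspases, their regulators and mitochondrial death factors had 4 of 17 probes higher on design 2 and none of 14 called on design 1 (6 with an unadjusted p below 0.05). The 4 of 17 are 23.5%, near the 19.8% of all design 2 probes called higher, and with the trend removed none was higher and 1 lower. The 3 with the smallest p were channels of the outer mitochondrial membrane. Vdac3 was 0.37 ± 0.09 (limma adjusted p = 2.66e-05), Vdac1 0.30 ± 0.05 (limma adjusted p = 0.000176) and Vdac2 0.21 ± 0.14 (limma adjusted p = 0.00874), and none of these 3 was called with the trend removed (limma adjusted p = 0.123, 0.0772 and 0.831). Without centring all 3 were below 0 (−0.063, −0.13 and −0.22). Vdac2 also lost its call without replicate 1 (limma adjusted p = 0.0638). Casp9, the caspase of the apoptosome, was −0.13 ± 0.09 (limma adjusted p = 0.0658), lower in 5 of 5 replicates, and −0.041 with the trend removed. On design 1, Pdcd6ip, an adaptor of membrane sorting, was 0.41 ± 0.22 (limma adjusted p = 0.0516), and 0.20 with the trend removed.

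**Figure D4:**
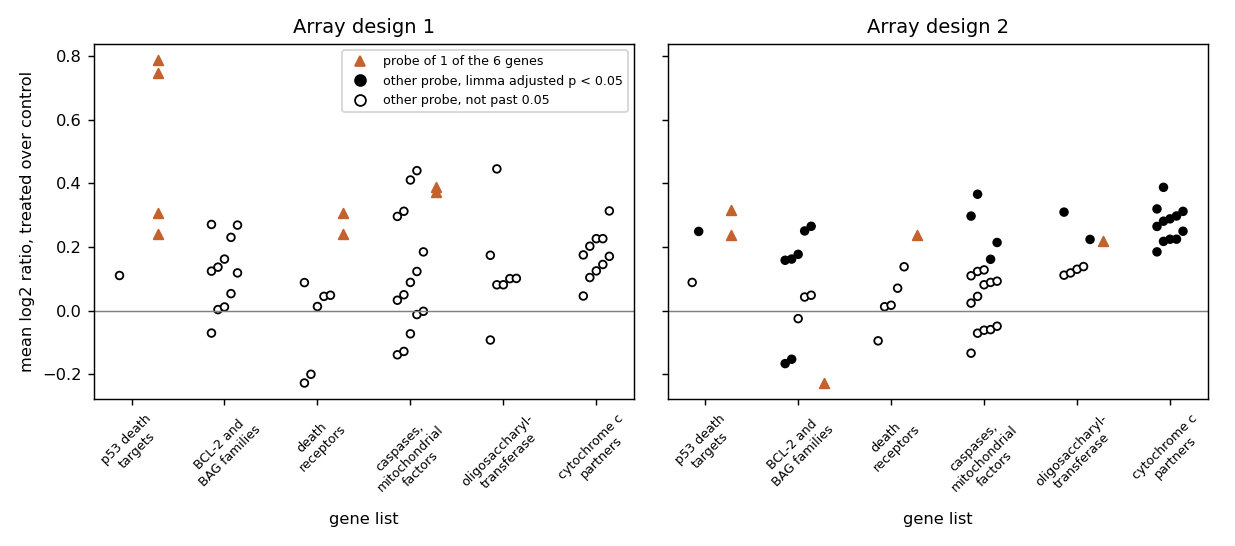
Mean log2 ratio of treated over control (y axis) of each probe of the pathway lists (x axis) on array design 1 (left panel) and 2 (right panel). Orange triangles are probes of the 6 genes, filled circles other probes past a limma adjusted p of 0.05 and open circles the rest. Filled circles appear on design 2 alone, and all 12 probes for cytochrome c partners are filled there.

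Genes of the respiratory complexes that exchange electrons with cytochrome c all passed on design 2, 12 of 12 probes for 8 genes, all higher. Of all probes of design 2, 19.8% were called higher, and 3.18% with the trend removed. Uqcrc2 was 0.39 ± 0.10 (limma adjusted p = 1.71e-05), Uqcrb 0.32 ± 0.05 (limma adjusted p = 8.14e-05) and Cox4i1 0.30 ± 0.10 (limma adjusted p = 0.000275) on their probes with the smallest p, and every probe of these 3 genes was below 0 without centring. With the trend removed 3 of the 12 were called. The Uqcrc2 probe given here was not one of them (0.034, limma adjusted p = 0.641), while Uqcrb was 0.18 and Cox4i1 0.15 (limma adjusted p = 0.0252 and 0.0441). On design 1, where both Cycs probes lie, none of 10 passed (6 with an unadjusted p below 0.05), and Uqcrc1 was 0.23 ± 0.08 (limma adjusted p = 0.0516). For the oligosaccharyltransferase, to which Dad1 belongs, 2 of 6 probes were higher on design 2, against 19.8% of all probes. With so few probes this count tells little about the complex, and with the trend removed 1 of the 6 was higher. Krtcap2 was 0.31 ± 0.09 (limma adjusted p = 0.000172) and Stt3b, a catalytic subunit, 0.22 ± 0.10 (limma adjusted p = 0.00434). With the trend removed Krtcap2 was 0.20 (limma adjusted p = 0.0145) and Stt3b 0.043 (limma adjusted p = 0.548). On design 1 none of 7 passed (1 with an unadjusted p below 0.05), with Stt3a, the other catalytic subunit, at 0.17 ± 0.12 (limma adjusted p = 0.0825) on its probe with the smallest p and Rpn1 at 0.10 ± 0.09 (limma adjusted p = 0.227). Among relatives of Aen, Rexo1 on design 1 was −0.085 ± 0.09 (limma adjusted p = 0.299).

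Among markers of blood cells, globins were higher on the design that held these calls. On design 2, 7 of 9 probes for erythroid genes were higher, against 19.8% of all probes, with Hbb-y at 0.58 to 0.63, Hba-x at 0.58 and Hbb-b1 at 0.50 and 0.29, while Alas2 (−0.0018) and Slc4a1 (0.11) were not called. The 7 probes were all for globins, with several for Hbb-y and for Hbb-b1, so they do not count separate genes. With the trend removed 5 of the 9 were higher, and Hba-x (0.23, limma adjusted p = 0.103) and the lower Hbb-b1 probe (0.093, limma adjusted p = 0.455) were no longer called. The macrophage gene C1qa was −0.15 ± 0.07 (limma adjusted p = 0.0371), the only one of 3 macrophage probes called, but 0.054 (limma adjusted p = 0.4) with the trend removed. Apoc2, the 1 visceral endoderm probe there, was −0.024. On design 1 none of the 13 marker probes passed, among them the erythroid gene Gata1 at −0.058 (limma adjusted p = 0.455). The lists hold only probes with 1 symbol. A design 1 probe shared by the globins Hba-a1 and Hba-a2 and by H3f3a was 0.68 ± 0.31 (SD, limma adjusted p = 0.0496). The part of these cell types in the values above was not tested.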

How the data were processed

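Total RNA of treated and control embryos was measured on 2-colour slides, each read 2 times, which gave the 40 arrays counted here. The authors deposited 1 log ratio per spot, uncentred, with array medians from −1.73 to 1.69. That these deposited values are log2 ratios of channel 1 over channel 2 was inferred from the values and the labels, and the sources used here do not give scanner, background correction or normalization. Probes were named from the platform annotation, where 4749 spots of design 1 and 4935 of design 2 had 1 symbol, 227 and 275 several and 2704 and 2470 none. Of those with 1 symbol, 4712 and 4884 matched RefSeq (GRCm38.p6, used for names), which changed none. Spots of one probe were averaged, leaving 7680 and 7599 probes.

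Each array was centred on its median, ratios were turned to treated over control, readouts and then orientations were averaged, and probes with at least 3 replicate values were tested against 0 with limma 3.58.1 (R 4.3.3), two-sided, per design, with Benjamini-Hochberg adjustment over all probes at 0.05. The fit was tested on simulated data that had the same dye effect in every replicate and no trend shared between probes. How the fit behaves under the dye-profile trend was therefore not tested. The dye-profile trend was a smooth function (mgcv 1.9.3) of 3 leading principal components of the dye part, fitted for each replicate. Alternatives were no centring, scaled arrays, single readouts and orientations, trend removal, slide series, other fits, and leaving out each replicate or the incomplete readout.

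The genes, lists and tests were chosen with earlier results of these data known. Named are the 6 genes; per list and design the up to 3 other genes with the smallest p among those called, or else the 1 whose p was smallest; a fixed set (among them Bax, Bbc3, Pmaip1, Casp8, Casp9, Apaf1, Bcl2, Bcl2l1, Mcl1, Rps27, Rpn1); and the 3 nearest probes to each member. Globins and other markers were named after their values were seen. Some items are not reported here. Treated and control RNA share each array, so every ratio is already paired.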

Additional observations from a re-analysis of the deposited data

How the results depend on the processing

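Of the recalculated values of the 10 probes, 145 moved by less than 1 SD between replicates, 14 moved by more and 7 changed sign. Leaving out any replicate moved none of them by over 1 SD, although Fas probe 598, with its wide SD, ranged from 0.19 to 0.38. Without centring the values were 0.43 (Aen, design 1), 0.47 (Rps27l), −0.0069 and −0.072 (Fas, design 1), 0.077 (Cycs probe 3537), −0.21 (Dad1), −0.19 (Fas, design 2), −0.11 (Aen, design 2) and −0.66 (Bik), since replicate medians before centring lay between −0.66 and −0.10. Scaling gave Aen 0.88 on design 1. With treated RNA in channel 1 or channel 2 alone, Rps27l was 0.46 or 1.12, Dad1 0.14 or 0.29 and Fas probe 1408 −0.087 or 0.56, and with the dye-profile trend removed they were 0.54, 0.10 and −0.069. Plain and B readouts gave Aen on design 2 as 0.42 and 0.22.

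Pathway probes called on design 1 were 5 higher on plain readouts, 8 with single arrays and a replicate block, 12 without the incomplete readout, and 17 lower without centring. On design 2, 25 higher became 0 without centring, 5 with the trend removed and 13 by an ordinary one-sample test. The 2 lower became 35 without centring, 0 when scaled or on plain readouts, 1 with the trend removed, by the one-sample test or with a series term, and 0 to 2 when a replicate was left out. Except for trend removal, the shares of all probes called under these settings are not given here.

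The dye part ranged over omissions from −0.17 to 0.0049 for Dad1 and from −0.14 to 0.020 for Bik, and the series difference of Dad1 was 0.032 with the trend removed. Named pathway genes that changed sign without centring were, on design 1, Stt3a (−0.16, −0.16, −0.065), Mcl1 (−0.083), Uqcrc1 (−0.013, −0.094), Rpn1 (−0.14) and Perp (−0.13), and on design 2 Vdac1 (−0.13), Vdac2 (−0.22), Vdac3 (−0.063), Uqcrb (−0.21, −0.11), Uqcrc2 (−0.12, −0.042), Cox4i1 (−0.14, −0.15, −0.13), Fastk (−0.29), Rps27 (−0.053), Mcl1 (−0.38), Bnip3l (−0.27, −0.16), Stt3b (−0.21), Tmbim4 (−0.18), Pidd1 (−0.18) and Krtcap2 (−0.12). On B readouts Rexo1 was 0.011 and Stt3a probe 1077 0.0080, and with the trend removed Stt3a was −0.032 and −0.073, Uqcrc1 −0.025 and Mcl1 on design 2 −0.018. Leaving out replicates gave Perp −0.0013 to 0.18 and Mcl1 on design 2 −0.016 to 0.11. The causes were not tested.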
